A study of Mus musculus with 41 samples.

Results

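The genes described here are 10 genes that mark ciliated cells, the airway cells that carry beating cilia: Foxj1, Rfx3, Dnahc5, Dnaic1, Spag6, Spag16, Hydin, Tekt1, Tekt2 and Tekt4. They were chosen by name, as every probe of the mRNA arrays whose gene name equals one of these, and 19 of the 41174 probes of the array carry such a name. They are 10 of 27962 gene names on the array. RNA of single mice was hybridized on 2-color oligonucleotide arrays. The samples were lung of 7 nanoTiO2 exposed and 6 control (air exposed) mice and liver of 7 exposed and 8 control mice. All were female mice of strain C57BL/6 (C57BL/6BomTac in the study's methods) that had been time-mated and did not become pregnant. Exposed mice inhaled UV-Titan L181, a nano-sized titanium dioxide, at a labelled 40 mg/m3 for 1 hr per day on 11 days. Control mice received clean air in the same way, and tissue was taken 5 days after the last day. The mRNA labels give no age in weeks, and those of the miRNA arrays of the study give 11 to 13 weeks. A randomly taken piece of the left lung stood for the lung, so that the share of airway in a sample can differ between mice.

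On each array the RNA of the mouse was labelled with Cy5 and hybridized against universal reference RNA labelled with Cy3, without a dye swap. A level is given as the log2 ratio of mouse over reference, so that 0 is the reference's level and 1 is a doubling of it. The levels of different genes are not set against each other, since each rests on its own probe. A probe was well above background where the scanner software marked it so in Cy5, which held for 55.1% to 70.5% of spots per array. Markers of the main cell types were checked against the tissue labels. Scgb1a1, the secretory protein of club cells, had mean log2 ratios of 6.71 in control lung and 0.30 in control liver. Sftpc, a surfactant protein of alveolar type 2 cells, had 4.94 in control lung and was well above background on 0 of 15 liver arrays. Alb1, albumin of hepatocytes, had 4.36 in control liver and 1.92 in control lung. The full lists of these 3 cell types were less even in the comparison of lung with liver described below. Each listed gene was given by its brightest probe in lung, a choice that favours lung. In control mice 6 of 6 alveolar type 2 markers were called higher in lung and 6 of 6 hepatocyte markers lower. Of the 4 club cell markers, 2 were called higher and 2 lower in lung. Over all probes 29.0% were called higher and 27.6% lower. These are bulk samples, in which fewer ciliated cells and less RNA per ciliated cell cannot be told apart.

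A motile cilium is a microtubule axoneme with 9 outer doublets around a central pair, driven by dynein motors. Foxj1, a forkhead transcription factor, and Rfx3, a regulatory factor X protein, switch on the genes of the axoneme. Dnahc5 is a heavy chain and Dnaic1 an intermediate chain of the outer dynein arm. Spag6, Spag16 and Hydin belong to the central pair apparatus, and the tektins Tekt1, Tekt2 and Tekt4 are filament proteins of the doublet microtubules. In the lung such cilia line the conducting airways, while hepatocytes carry none and the cells of bile ducts carry a non-motile one.

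RFX proteins bind the X-box, and the start regions of the genes were searched for it, since it is one feature the genes may share. The table of promoters from RefSeq (build GRCm38.p6, 300 bases each) held 11 promoters of 8 of the genes, and Foxj1 and Dnahc5 were not matched. The X-box motif, searched on both strands, was in 5 of these 11 promoters (4 of the 8 genes), against 1.53% of all 32851 promoters. For Tekt2 the same site was counted in overlapping promoters, 29 and 71 bases before their starts. Promoters of the other cilium genes listed further on held the X-box in 18 of 125 (14.4%). The letters GTTGCC, which can form part of an X-box, were in 8 of the 11, in 43.2% of those of the other cilium genes and in 12.5% of all. The forkhead letters TGTTTAC were in 0 of the 11 and in 3.65% of all. A match is a description of the letters and not a measured binding site. The 120 bases before the start are given for the 4 genes with an X-box, which stands in capitals, to show how near the start it lies. It begins 29 bases before the start in Tekt2 (chr4:126325689-126325808, minus strand), 103 in Spag16 (chr1:69826850-69826969, plus strand), 19 in Dnaic1 (chr4:41569674-41569793, plus strand) and 21 in Hydin (chr8:110266857-110266976, plus strand).
Tekt2: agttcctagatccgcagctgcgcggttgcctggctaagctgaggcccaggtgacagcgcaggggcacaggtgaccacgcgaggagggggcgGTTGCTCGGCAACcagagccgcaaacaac
Spag16: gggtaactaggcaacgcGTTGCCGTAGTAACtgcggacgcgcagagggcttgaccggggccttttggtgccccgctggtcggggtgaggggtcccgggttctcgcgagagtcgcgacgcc
Dnaic1: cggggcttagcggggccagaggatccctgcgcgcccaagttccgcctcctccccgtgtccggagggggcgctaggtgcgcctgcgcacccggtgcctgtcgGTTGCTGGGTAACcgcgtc
Hydin: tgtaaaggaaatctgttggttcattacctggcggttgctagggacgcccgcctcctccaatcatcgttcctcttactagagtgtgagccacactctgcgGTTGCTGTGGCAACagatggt

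By the brightest probe in lung, all 10 genes had higher mean log2 ratios in lung than in liver, in control and exposed mice. The brightest probe of each gene in lung was well above background on 13 of 13 lung arrays, and it stands for the gene in what follows. For the 6 genes with several probes this choice used the lung signal, in favour of a probe that is high in lung, and the values over all probes are given further on. Lung and liver were compared within the 12 mice that have both (6 exposed, 6 control), by limma with mouse as a block, and p-values were adjusted over all probes by the Benjamini-Hochberg method. All 10 genes passed the threshold of 0.05 as higher in lung in control mice, where 29.0% of all probes tested did. All 10 passed it in exposed mice too, where 30.1% of all probes did. Slide, scan and software version differed between the tissues throughout and cannot be told apart from tissue.

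Among the regulators, Foxj1 (chr11:116439945-116440004, build mm7 as in the array files) had log2 ratios of 2.88, 2.94 and 2.99 (lowest, median, highest) in control lungs and of -0.28, 0.55 and 1.05 in control livers. The tissues did not overlap, and the difference within mice was 2.37 ± 0.15 (SE, n = 6) or 5.17-fold, with an adjusted p of 1.75e-09 from limma. Foxj1 varied most of the 10 genes between livers, with a SD of 0.36 over 15, of which 13 had its probe well above background. Rfx3 had log2 ratios of 0.22, 0.34 and 0.49 in control lungs and of -0.40, -0.27 and -0.02 in control livers. The difference was 0.55 ± 0.06 (adjusted p = 1.41e-06 from limma), but 0 of 15 livers had a signal well above background. The liver side of such a difference is not a measured level, so its size is given without a fold. No lower bound is given either, since one taken from the Cy5 channel lay above the fold of the ratios themselves (1.63 against 1.46 in control mice).

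The 2 genes of the outer dynein arm are each given here by 1 probe. The 2 other probes of Dnahc5 had lung minus liver differences of 0.28 and -0.02 in control mice. Dnahc5 had log2 ratios of 2.70, 3.41 and 3.78 in control lungs and of 0.11, 0.23 and 0.47 in control livers, a difference of 3.05 ± 0.13 on the log2 scale (adjusted p = 1.35e-11 from limma). Only 3 of 15 livers had a signal well above background, and the reference channel reached it on 0 of 13 lung arrays, so that neither the liver level nor the denominator of the ratio was measured well and no fold is given. Dnaic1 (chr4:41776427-41776486, mm7) had log2 ratios of 1.31, 1.61 and 1.82 in control lungs and of 0.97, 1.27 and 1.48 in control livers. Here the tissues overlapped, and 15 of 15 livers were well above background. The difference was 0.34 ± 0.09 or 1.27-fold in control mice (adjusted p = 0.00297 from limma) and 0.58 ± 0.09 in exposed mice (adjusted p = 3.09e-05). In the Cy5 channel alone it was 0.03 in control and 0.31 in exposed mice, and neither passed the threshold.

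The central pair genes were at the edge of detection or below it in liver. Spag6 had log2 ratios of 1.67, 2.23 and 2.52 in control lungs and of -0.01, 0.13 and 0.35 in control livers, and it was well above background on 0 of 15 livers. The log2 difference was 1.96 ± 0.12 in control mice (adjusted p = 1.18e-09 from limma) and 2.20 ± 0.12 in exposed mice. Its probe was made to a transcript that RefSeq now names Spag6l. Spag16 had log2 ratios of 0.88, 1.41 and 1.91 in control lungs and of -0.19, -0.0012 and 0.14 in control livers, again with 0 of 15 livers well above background, and the log2 difference was 1.41 ± 0.13 in control mice (adjusted p = 1.21e-07 from limma). For both genes the reference channel was well above background on 0 of 13 lung arrays. Hydin spread widest over control lungs, at 1.38, 2.04 and 2.81, against -0.09, 0.06 and 0.07 in control livers, where 4 of 8 had a signal well above background. The log2 difference was 1.99 ± 0.17 in control mice (adjusted p = 4.68e-08 from limma). No fold is given, since its liver level was measured in only 4 of these 8 livers.

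The tektins were measured against liver to different degrees. Tekt1 had log2 ratios of 3.27, 3.44 and 3.62 in control lungs and of -0.22, 0.12 and 0.30 in control livers, a difference of 3.29 ± 0.06. Tekt2 had 2.68, 2.85 and 3.08 in control lungs against -0.47, -0.24 and -0.07, a difference of 8.58-fold with a SE of 0.08 on the log2 scale. Tekt4 had 2.10, 2.44 and 2.56 against 0.32, 0.36 and 0.49, a difference of 2.00 ± 0.08 or 4.01-fold. Adjusted p-values from limma were 2.33e-15, 4.46e-14 and 4.88e-12. Tekt2 and Tekt4 were well above background on 15 of 15 livers and Tekt1 on 7, so that the liver level of Tekt1 was not measured in most mice.

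**Figure D1:**
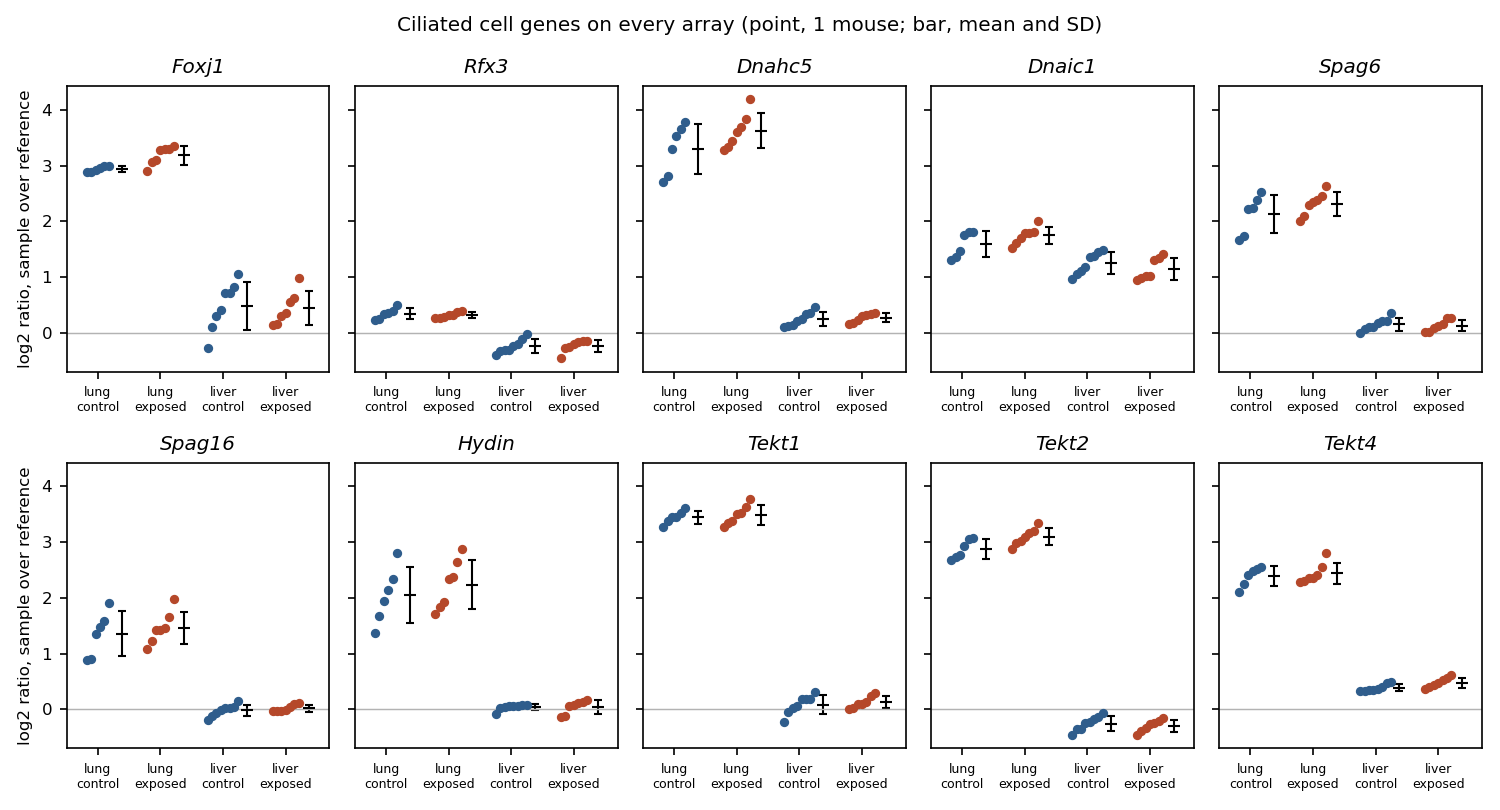
Log2 ratio of mouse over reference (vertical axis, 0 is the reference's level) for the brightest lung probe of each of the 10 genes, in control (blue) and exposed (red) lung and liver; each point is 1 mouse and the black bar is the mean with its SD (n = 6, 7, 8 and 7 from left to right). The lung points lie above all liver points for every gene except Dnaic1, where lung and liver overlap, and exposed and control overlap for every gene in both tissues.

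Other probes of the same genes often gave no such contrast, and they are listed here since the choice of probe sets the size of a difference. Of the 6 genes with more than 1 probe, Tekt1 alone had a second probe with a like contrast, at 2.59 ± 0.10 in control mice. It reached a signal well above background on 0 of 15 livers. The other 8 probes had lung minus liver differences between -0.07 and 0.39 in control mice, and their mean Cy5 signals over the lungs lay between 5.91 and 6.44 on the log2 scale, against 6.76 to 11.6 for the 10 brightest probes. For Dnahc5 the bright probe (chr15:28577341-28577400, mm7), which the array design made to a full-length cDNA clone, lies beyond a dim probe made to the RefSeq transcript (chr15:28576091-28576150). The dim probe had a difference of 0.28 in control mice. The bright Rfx3 probe was also made to such a clone (chr19:27505481-27505540, mm7), and the 2 probes to the RefSeq transcript had differences of 0.02 and -0.04. The bright probes of Tekt4 and Spag16 were made to cDNA clones as well. When all probes of a gene were averaged, the differences in control mice came to 0.18 for Rfx3, 0.997 for Spag6, 0.58 for Spag16, 1.1 for Dnahc5 and 0.99 for Hydin, each still past the threshold. Whether each probe lies in an exon or a UTR was not looked up, since no annotation of mm7 was used here.

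**Figure D2:**
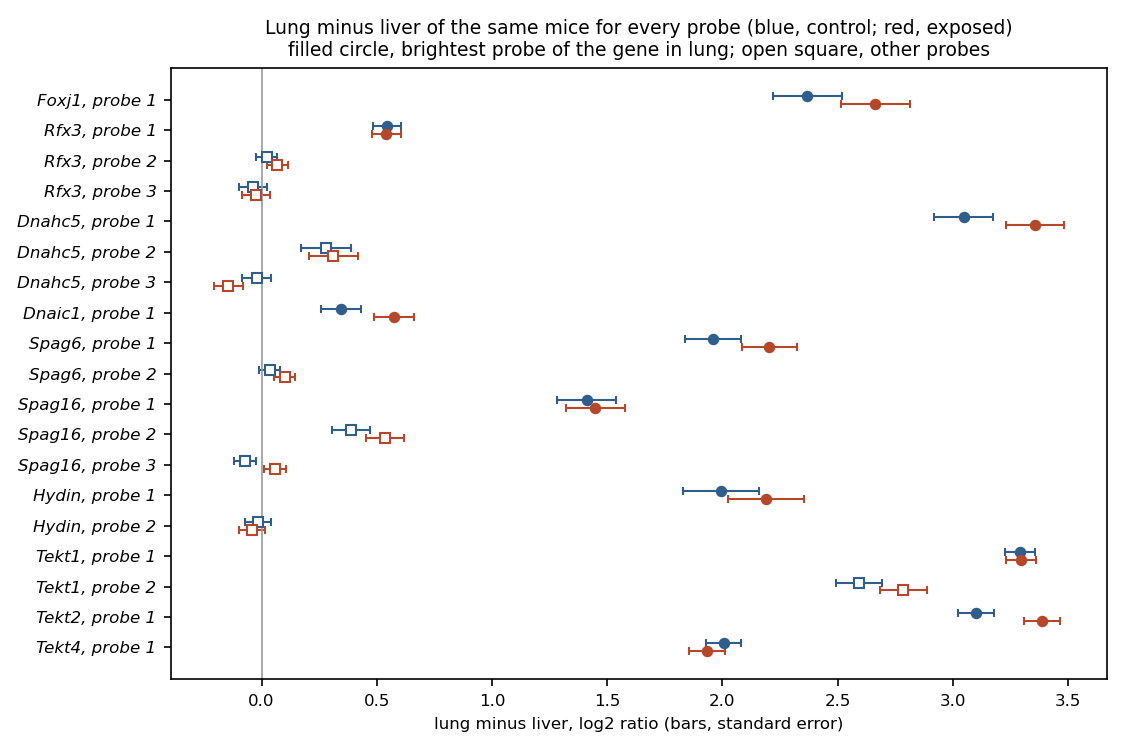
Difference between lung and liver of the same mice (horizontal axis, log2 ratio) for all 19 probes, with its standard error from limma, in control (blue) and exposed (red) mice. Filled circles are the brightest probe of each gene in lung and open squares the others; apart from the second Tekt1 probe the open squares lie between -0.14 and 0.54.

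Whether inhaled nanoTiO2 changed these genes in the lung was asked by comparing the 7 exposed with the 6 control lungs. No gene passed the threshold, against 0.221% of all probes. By the unadjusted p of limma 2 genes were under 0.05, Foxj1 and Tekt2, against 7.07% of all probes. Differences lay between -0.03 and 0.33 on the log2 scale, with 9 of the 10 above 0. The groups overlapped for every gene.

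Foxj1 came nearest. Its log2 ratios were 2.90, 3.28 and 3.35 (lowest, median, highest) in exposed lungs, and 2.88, 2.94 and 2.99 in control lungs. The control lungs lay close together, with a SD of 0.05 against 0.17 in exposed lungs, and 6 of 7 exposed lungs lay above every control lung, the exception being mouse 20. The difference was 0.25 ± 0.07 (95% interval 0.10 to 0.39) or 1.19-fold, with a p of 0.00211 and an adjusted p of 0.288 from limma. An exact 2-sided permutation test over the 1716 splits of the arrays gave a p of 0.00932. Within the 3 slides that hold both groups the difference was 0.20 to 0.39, above 0 on each. These slides leave out exposed mice 20 and 23, which shared slide 4 with no control lung. Without mouse 20 the adjusted p was 0.0392, with a difference of 0.29, and under the other omissions of a single lung it stayed between 0.301 and 0.521. With the scanner software's processed signals the difference was 0.06, and in the Cy5 channel alone 0.44, neither past the threshold. With the background model fitted on all spots it was -0.26, and 8 others of the 10 genes turned from positive to negative as well. Rfx3, already negative in the main fit, did not change sign.

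Tekt2 had log2 ratios of 2.88, 3.09 and 3.34 in exposed and of 2.68, 2.85 and 3.08 in control lungs, so that all 7 exposed lungs lay above the control mean and 4 of 7 above every control lung. The difference was 0.22 ± 0.08 (95% interval 0.05 to 0.40), with an adjusted p of 0.589 from limma and an exact 2-sided permutation p of 0.0361. With slide as a block it was 0.15. Dnahc5 had the widest difference, 0.33 ± 0.19 (95% interval -0.07 to 0.73, adjusted p = 0.747 from limma), from log2 ratios of 3.28, 3.61 and 4.19 in exposed and 2.70, 3.41 and 3.78 in control lungs. Averaged over its 3 probes the difference was 0.10. For the other 7 genes the intervals all held 0. Their differences were 0.19 for Hydin, 0.19 for Spag6, 0.16 for Dnaic1, 0.11 for Spag16, 0.05 for Tekt4, 0.04 for Tekt1 and -0.03 for Rfx3. The widest of these intervals, that of Hydin, ran from -0.29 to 0.68, and the narrowest, that of Rfx3, from -0.12 to 0.07. Single lungs weighed on several of these. Hydin was at 0.06 without control mouse 29 and 0.34 without control mouse 34. Without control mouse 27 Spag6 was at 0.09, Spag16 at 0.01 and Dnaic1 at 0.11, and Spag16 was at 0.22 without control mouse 32. Dnahc5 was at 0.21 without control mouse 29.

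**Figure D3:**
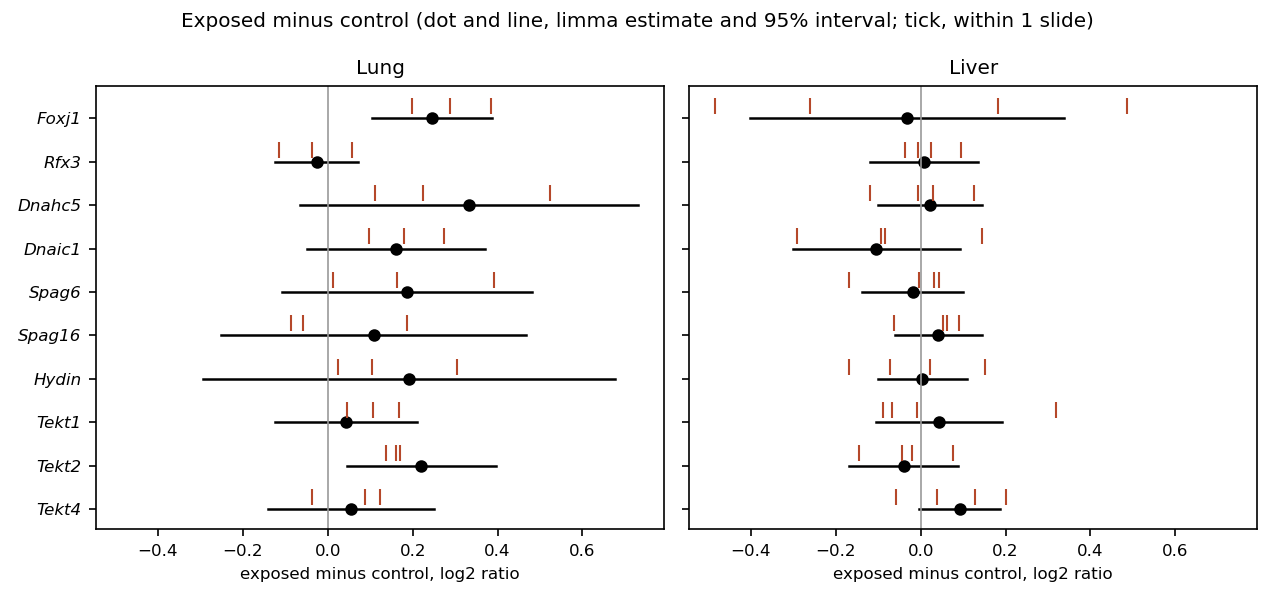
Exposed minus control (horizontal axis, log2 ratio) in lung and liver for the 10 genes; the dot is the limma estimate, the line its 95% interval, and each red tick the same difference within 1 slide that held both groups (3 slides in lung, 4 in liver). In the lung only the intervals of Foxj1 and Tekt2 lie above 0, and in the liver every interval holds 0.

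In the liver of the exposed mice no gene passed the threshold, against 0.00% of all probes. By the unadjusted p of limma none was under 0.05, against 2.53% of all probes, but Tekt4 was at 0.0063 without background correction. Differences lay between -0.10 for Dnaic1 and 0.09 for Tekt4. Tekt4, which is measurable in liver, had log2 ratios of 0.36, 0.47 and 0.61 in exposed and of 0.32, 0.36 and 0.49 in control livers (adjusted p = 1.00 from limma and exact 2-sided permutation p = 0.0395). Foxj1 had 0.14, 0.36 and 0.99 in exposed livers, with a difference of -0.03 (95% interval -0.40 to 0.34), and within single slides it ran from -0.48 to 0.49. The difference between the exposure effects of the tissues was tested within the 12 mice, and no gene passed the threshold, against 0.120% of all probes. It was 0.29 ± 0.11 for Tekt2 (adjusted p = 0.704 from limma) and 0.29 ± 0.21 for Foxj1 (adjusted p = 0.910).

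The genes also differed from lung to lung. When each gene's mean over the 13 lungs was subtracted and the 10 genes were averaged, the lowest lungs were those of control mice 29 and 27, at -0.35 and -0.31, and the highest that of exposed mouse 13, at 0.36. Hydin ran from 1.38 in mouse 29 to 2.87 in mouse 13 and Dnahc5 from 2.70 to 4.19 in the same 2 mice. Mouse 13 was above the mean of all lungs for 9 of the 10 genes, exposed mouse 7 for all 10, and mouse 29 for 1. Mice 27, 29 and exposed mouse 12 shared slide 2, and all 3 lay below the mean of all lungs. Spag16 was at 0.88, 0.89 and 1.08 in these 3 and at 1.23 or more in the other 10 lungs.

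A test of the slide term, chosen after these values were seen, with exposure in the same limma fit, called 3 of the 10 genes, against 4.89% of all probes. They were Spag16 (adjusted p = 0.0205), Spag6 (adjusted p = 0.0285) and Dnaic1 (adjusted p = 0.0291). Foxj1 had an adjusted p of 0.871 in it. Slides held different mice, and lung pieces, RNA and hybridization of a slide cannot be told apart here.

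**Figure D4:**
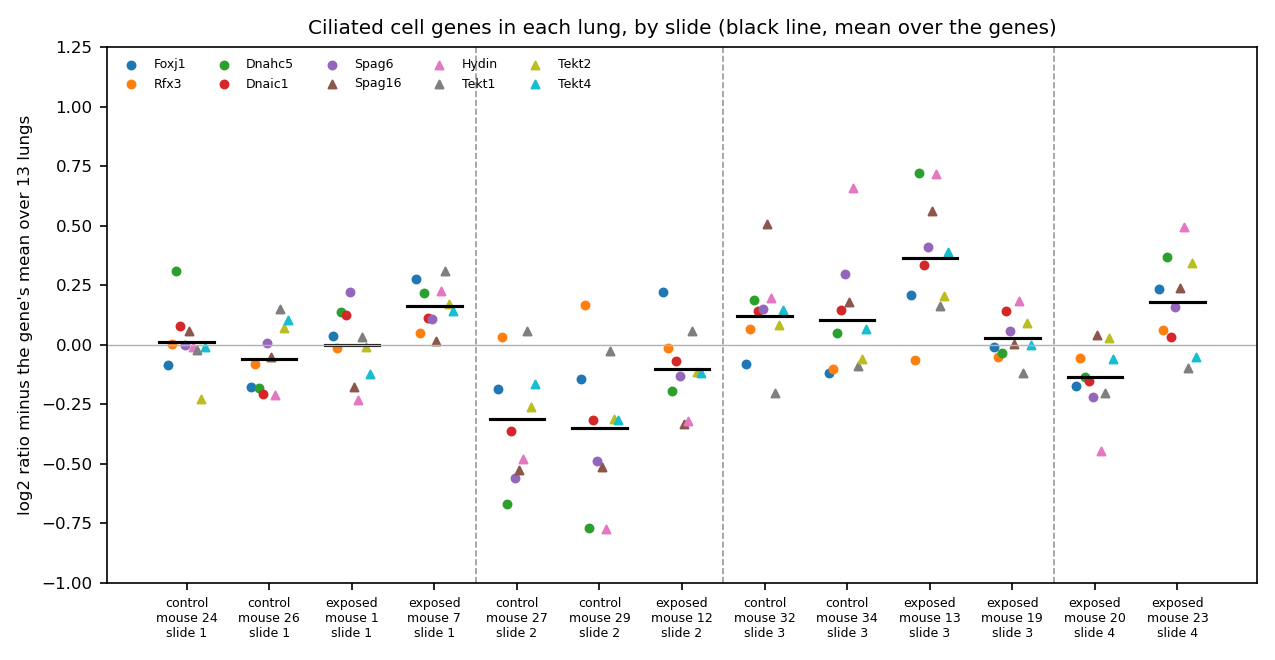
Log2 ratio of each of the 10 genes minus its mean over the 13 lungs (vertical axis) in every lung (horizontal axis, by slide, dashed lines between slides); the black line is the mean over the genes. The 3 lungs of slide 2 lie low, control mice 27 and 29 lowest, and exposed mouse 13 on slide 3 lies highest.

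The genes that moved alike across the lungs were found by the Pearson r of each probe with the mean of the 10 genes, after the mean of each group was subtracted. This used the 23274 probes well above background on all 13 lung arrays. It is a description, since all points share the same 13 RNA samples and slides. Each of the 10 genes was left out of the mean it was set against. Dnahc5, Spag6, Hydin, Dnaic1, Spag16 and Tekt4 had r of 0.84 to 0.91, Tekt2 had 0.71 and Foxj1 0.48. Tekt1 had 0.04 by its brightest probe and 0.94 by its second probe, and Rfx3 had -0.35. With the means of the slides subtracted too, Foxj1 had 0.91, Tekt1 0.55 and Rfx3 0.14, while the other 7 had between 0.52 (Tekt2) and 0.83 (Dnahc5). The 2 probes of Tekt1 thus give different accounts of this gene from lung to lung.

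Outside the 10 genes, the 10 gene names most alike were 1700009P17Rik (r = 0.98), Sntn (listed as A430083B19Rik, 0.98), Pih1d2 (listed as 2700059L22Rik, 0.98), March4 (0.97), Dmkn (0.97), 1700088E04Rik (0.97), 4930438O03Rik (0.97), Hoatz (listed as 4833427G06Rik, 0.97), AK078982 (0.97) and Nme5 (0.97). Sntn encodes sentan of the tip of airway cilia and Nme5 a protein of the radial spoke. Over omissions of a single lung the r of these 10 stayed between 0.96 and 0.99, and with slide means subtracted between 0.92 and 0.96. Probes of a list of other cilium genes had a median r of 0.79, or 0.69 with slide means subtracted, against -0.02 and -0.00031 over all probes. They were 17 of the 100 probes most alike, and 0.567% of all probes compared.

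Markers of other cells moved with the same lungs to different degrees. Heart muscle markers had r of 0.53 to 0.71 (5 genes measured), and -0.10 to 0.36 with slide means subtracted. Their summed Cy5 signal on the log2 scale was 12.1 in mouse 27 and 13.3 in mouse 29, against 14.3 to 16.2 in the other lungs. Markers of mucous cells had r of 0.79 and 0.83 (2 genes), and 0.41 and 0.52 with slide means subtracted. Those of club cells had -0.36 to 0.72 (4 genes), and 0.40 to 0.91 with slide means subtracted. With group means subtracted only, alveolar type 1 markers had r of -0.55 to -0.04 (5 genes). Alveolar type 2 markers ran from -0.61 to 0.63 (6 genes), basal cell markers from -0.03 to 0.50 (3 genes), hepatocyte markers from 0.28 to 0.60 (3 genes), bile duct cell markers from -0.41 to 0.68 (3 genes) and germ cell markers from -0.25 to 0.60 (2 genes). With slide means subtracted the medians were 0.29 for alveolar type 1, 0.17 for alveolar type 2, -0.29 for basal, -0.31 for hepatocyte, -0.02 for bile duct and 0.30 for germ cell markers. Summed hepatocyte markers reached 13.2 in exposed mouse 1, against 9.02 to 11.9 in the other lungs. The part of these cells in the values of the 10 genes was not tested.

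**Figure D5:**
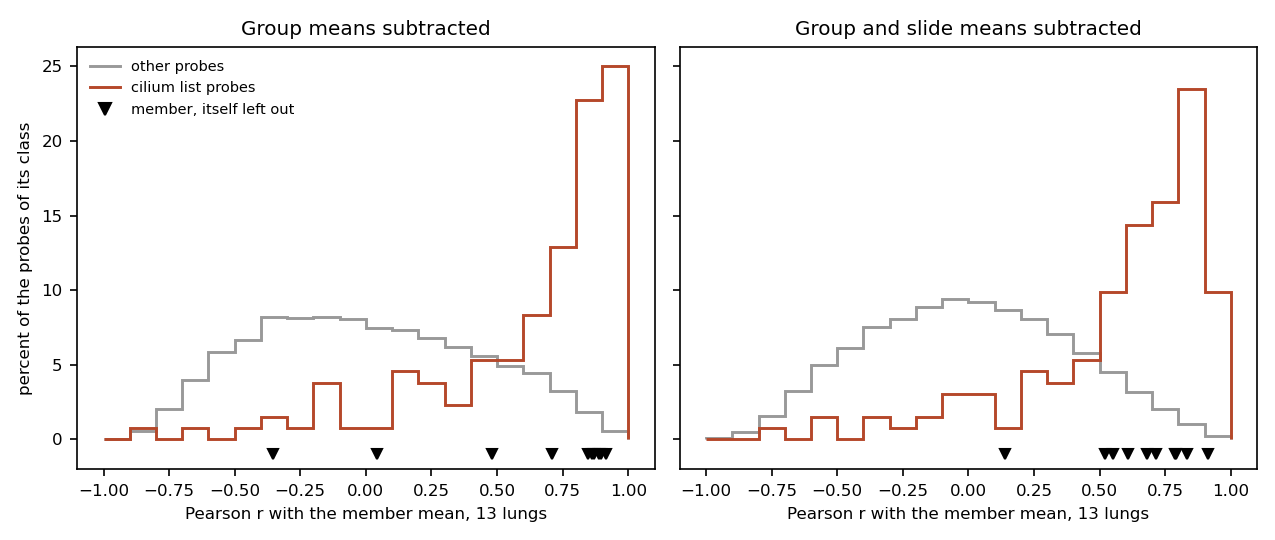
Share of probes (vertical axis, percent of the probes of each class) by Pearson r with the mean of the 10 genes over 13 lungs (horizontal axis), for 132 probes of other cilium genes (red) and all remaining probes (grey), with group means subtracted (left) and group and slide means subtracted (right); triangles mark the 10 genes, each set against the mean of the others. The tallest step of the red line lies at the right of both panels, and the grey line spreads on both sides of 0.

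Other cilium genes were followed through lists of 136 further genes, of which 114 were on the array. Of these, 80 were in lists of the motile axoneme, and the others were intraflagellar transport genes and regulators of ciliogenesis. Each gene was given by its brightest probe in lung, a choice that favours a higher value in lung. The shares over all probes rest on no such choice, so that counts and shares of lung against liver are not fully comparable. In control mice 92 of the 114 were called higher in lung than in liver, against 29.0% of all probes, with a median difference of 1.03 on the log2 scale against -0.01 over all probes. Another 7 were lower, against 27.6% of all probes. In exposed mice 93 were called higher, against 30.1% of all probes. By group, those called higher in control mice were 8 of 10 outer dynein arm genes, 8 of 9 inner arm genes, 5 of 7 assembly factors, 8 of 10 radial spoke genes, 4 of 4 central pair genes, 8 of 9 nexin link genes, 11 of 14 genes of tektins and microtubule inner proteins, 14 of 17 other motile cilium genes, 19 of 23 intraflagellar transport genes and 7 of 11 regulators of ciliogenesis. The 5 highest were Tuba1a, an alpha tubulin (5.09), Tppp3, a tubulin binding protein (4.95), Dynlrb2, a dynein light chain (4.48), Lrrc23 of the radial spoke (4.20) and Cfap126 (4.13). In exposed mice Ak7, an adenylate kinase of the central pair, took the place of Lrrc23 among the 5 highest, at 4.36. Genes lower in lung included Ropn1l (-3.28), named for the radial spoke, Rfx4 (-1.47), Ift52 (-0.55), Ribc1 (-0.47) and Nme7 (-0.37), and in exposed mice Rsph6a (-0.26).

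In the lungs of exposed mice 0 of these 114 genes passed the threshold, against 0.221% of all probes. By the unadjusted p of limma 13 were under 0.05, 12 of them higher and 1 lower, against 7.07% of all probes under 0.05. The median difference was 0.12 on the log2 scale against 0.00 over all probes, and 95 of 114 were above 0 against 50.7% of all probes. The medians were 0.19 for inner arm genes, 0.20 for the central pair, 0.18 for tektins and microtubule inner proteins, 0.17 for the nexin link, 0.15 for radial spokes, 0.13 for other motile cilium genes, 0.05 for intraflagellar transport, 0.05 for assembly factors, 0.04 for the outer arm and -0.0032 for regulators of ciliogenesis. These genes share the lungs and move together across them, so that their counts are not separate pieces of evidence. The median was 0.09 with slide as a block, 0.07 without control mouse 29, 0.08 without exposed mouse 13 and 0.14 without exposed mouse 20. In the liver 0 of 114 passed, against 0.00% of all probes, with a median of 0.01.

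None of the 47 markers of other cell types on the array passed the threshold in the lung comparison, against 0.221% of all probes. By the unadjusted p of limma 5 of them were under 0.05 as higher and 2 as lower, against 7.07% of all probes. Median differences by list were 0.71 for mucous, 0.45 for hepatocyte, 0.28 for heart muscle, 0.17 for basal, 0.03 for bile duct, -0.00093 for germ, -0.03 for alveolar type 2, -0.06 for alveolar type 1 and -0.14 for club cells. Krt5, a keratin of basal cells, had 0.24, Aqp5, a water channel of alveolar type 1 cells, -0.03, Krt7 -0.04, Myh6, a heart myosin, 0.41, Prm1, a protamine, 0.10, Alb1 0.87, Sftpc -0.08 and Scgb1a1 -0.19 (adjusted p of 0.691 to 0.947 from limma). No probe of the array carries the name Muc5ac, the first gene of the mucous list. Summed mucous markers ranged from 9.95 to 14.5 in exposed and from 8.75 to 11.9 in control lungs. The 14.5 was exposed mouse 13, with the next exposed lung at 11.7, and the lowest were control mice 27 (8.75) and 29 (8.79), the same lungs that stood highest and lowest for the 10 genes. One gene of the list, Foxa3, was well above background on no lung.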

How the data were processed

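For each array the authors deposited a scan file with median spot and background intensity values, not normalized, and a processed table of log2 ratios made by LOWESS. Per the file headers the software was Agilent Feature Extraction 9.5.3.1 for lung and 10.1.1.1 for liver. The table's columns had medians of -0.04 to -0.02 and correlated at 0.994 to 0.998 with the ratios computed here without background correction, so that its direction is mouse over reference; it was used as an alternative. The miRNA arrays were not used here.

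There were 45018 spots per array and 43379 without the controls. Spots the software marked as outliers in the spot or its background (0.258% to 0.576% per array) were left out. Median intensities were corrected with normexp (offset 50) and normalized within each array by loess with control spots at weight 0, and replicate spots were then averaged to probes. Groups were taken from the labels. Exposed and control were compared within each tissue with lmFit and eBayes of limma 3.58.1 in R 4.3.3, with Benjamini-Hochberg adjustment over 41172 probes in lung and 41174 in liver and a threshold of 0.05. Lung and liver were compared with mouse as a block over the 40752 probes measured on all arrays of the 12 mice. The pairing comes from the mouse number in the labels, since both tissues came from the same mice. Each array holds 1 mouse. The number of arrays limits the precision. Exposed mice always lay at slide positions 1 and 2 and control mice at 3 and 4; position cannot be separated from exposure. The fits were tested on simulated data.

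Every gene of the 10 is named with all its probes, and the probe with the highest mean Cy5 signal over the 13 lungs stands for it. The probe of each gene in the cilium and marker lists was chosen in the same way. Of the cilium lists, the 5 highest and the 5 lowest differences called in each comparison are named, of the genes most alike the first 10, and of the marker lists the first gene. Spag6l of the lists is the Spag6 of the array and was counted there only. The genes, the lists and the handling of marked spots were chosen with earlier results of these data known. Alternatives were normexp fitted on all spots, no background correction, the processed signals, median centring, Cy5 alone after Aquantile, the authors' table, a filter on probes well above background in Cy5 on at least 50% of the arrays of a group, the mean over the probes of a gene, slide as a block, no mouse block, and each array or mouse left out. For the exposure differences of the cilium lists, only no background correction, slide as a block and omissions of a lung were run. Figures were drawn with matplotlib 3.10.9.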

Additional observations from a re-analysis of the deposited data

Results flagged for a closer look

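Among the 40 sets of values (10 genes in 4 groups), 2 held a mouse whose gap to the nearest other mouse was wide for the range of its group, and about 1 in 20 sets would show this by chance. Rfx3 was at -0.45 in the liver of exposed mouse 23, with the next at -0.27. Hydin was at -0.0890 in the liver of control mouse 45, with the next at 0.03. The Rfx3 probe was well above background on no liver and the Hydin probe on 8 of 15.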

How the results depend on the processing

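With normexp fitted on all spots, marked ones included, the lung differences turned negative for Foxj1 (-0.26), Tekt1 (-0.30), Tekt2 (-0.32), Tekt4 (-0.30), Spag6 (-0.41), Spag16 (-0.24), Dnahc5 (-0.46), Dnaic1 (-0.26) and Hydin (-0.35), with adjusted p-values from limma of 0.665 to 0.804, and Dnaic1 was at -0.0420 for lung minus liver in exposed mice. The processed signals gave -0.0220 for Tekt1 and a fixed slide block -0.00754 for Spag16 in lung. The cause was not tested. Over omissions of a lung Rfx3 ran from -0.0494 to 0.00474, Tekt1 from -0.00522 to 0.0805 and Tekt4 from -0.00620 to 0.0897. No alternative called a gene of the 10 in lung or liver for exposure, apart from Foxj1 without mouse 20 (0 to 1 called over omissions of a lung, 0 over those of a liver). Lung minus liver called 10 of 10 in control and exposed mice over all omissions of a mouse, 9 with Cy5 alone, and 9 in exposed mice with normexp on all spots. Without the mouse as a block, over all 28 arrays, it called 10 and 10, and the difference between tissues in the exposure effect 0, as did every omission of a mouse, so that the pairing changed no call. The sizes moved more: the processed signals gave lung minus liver differences in control mice of 2.72 for Rfx3, 4.92 for Spag6, 5.37 for Spag16, 5.96 for Dnahc5 and 4.18 for Hydin, and the Cy5 channel 5.19 for Tekt1. Dnaic1 was at 0.69 with normexp on all spots and 0.53 with median centring.

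Over all probes the lung comparison called 15 with normexp on all spots and 6 with median centring against 91, and 71 to 92 over omissions of a lung, while the liver called 0 throughout. Lung minus liver called 22079 to 23176 probes in control and 22772 to 24164 in exposed mice over omissions of a mouse. The difference between tissues in the exposure effect called 6 with normexp on all spots, 10 with processed signals, 3 with median centring and 32 with Cy5 alone against 49, and 31 to 44 over omissions, with 31 without mouse 20 or 24 and 32 without mouse 19 or 29. The cilium lists held 0 called genes and 90 to 98 positive differences over omissions of a lung, and 15 to 22 of the 100 probes most alike. These omissions for the lists and the slide settings for the lists and the likeness were chosen after seeing the data. Probes not well above background in liver limit what a fold of lung over liver can show.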
